A study of Homo sapiens with 24 samples.

Results

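Genes for proteins that build the mitotic spindle or bind its microtubules were followed in LNCaP, an established prostate cancer cell line, after siRNA against 2 long noncoding RNAs. There were 9 of them, SPAG5, DLGAP5, HMMR, NUSAP1, PRC1, ASPM, CKAP2, GTSE1 and GPSM2, out of 15186 genes tested at 24 h and 17473 tested at 48 h. They were selected by name from genes whose intensity was lower after knockdown in earlier results of these arrays. The 24 h contrasts with the control entered that choice, and the 48 h results were also known when it was made. The values and calls of the 9 genes against the control are therefore a description at both time points. At 24 h each of the 9 genes had a lower mean after either siRNA than after the control. At 48 h all 9 fell after the siRNA against TAPIR-1, with a median log2 fold change of -3.06 (-2.74 with HMMR and NUSAP1, not measured above background there, set to their bounds). After the siRNA against TAPIR-2 the median was -1.96 at 48 h, and 2 of the 9 (GPSM2 and PRC1) passed the threshold, against 0.195% of all genes. Both of these calls were lost whichever array was left out and with the replicate number as a block. Between the siRNAs at 48 h the fitted level was higher after the TAPIR-2 siRNA for the 7 genes that could be compared. The difference, which uses the same 48 h arrays and is also a description, passed the threshold for 0 of the 9 in limma's fit. In that fit 7 of the 9 had an unadjusted p under 0.05, as had 21.7% of all genes. These are not the same 7 genes: NUSAP1, above background with neither siRNA, is among them, and GPSM2 is not.

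LNCaP cells were electroporated with a scrambled siRNA (si-SCRL), with si-A1 against TAPIR-1 or with si-A2 against TAPIR-2, and RNA was taken after 24 h or 48 h. Each of the 6 groups held 4 biological replicates, and each sample was hybridised to its own single-colour Agilent array, 24 in all. All groups are the same cell line and received an siRNA, and each knockdown rests on 1 siRNA, so effects of its sequence beyond the target cannot be told apart from those of the knockdown. The 48 h array of si-A2 replicate 2 was dim (median intensity 13.9 against 20.4 to 32.2 on the other 48 h arrays) and was left out, so 3 arrays of si-A2 remained at 48 h. The median intensity was between 24.4 and 57.2 at 24 h, and 58.5% to 71.7% of the spots were well above background there by the rating of the scanner software (60.3% to 66.5% at 48 h). Each siRNA had its own column of the slide at both time points, so array position and siRNA cannot be told apart, and the 48 h samples were on a later version of the array than the 24 h samples.

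The labels were checked on the target and on cell type markers. TAPIR-2 is covered by 1 probe at 24 h, with a normalized log2 intensity of 5.04 ± 0.20 (SD, n = 4) with si-SCRL, 4.64 ± 0.32 (SD, n = 4) with si-A1 and 4.06 ± 0.74 (SD, n = 4) with si-A2. At 48 h the same probe was at 4.64 ± 0.58 (SD, n = 4), 4.82 ± 0.81 (SD, n = 4) and 4.68 ± 0.90 (SD, n = 3), so it showed no lower level with si-A2 there. A further TAPIR-2 probe, measured at 48 h only, was well above background on no array, with means of 2.52, 1.75 and 1.99 in the same order. No probe was matched to TAPIR-1. The prostate luminal markers KLK3, KLK2 and TMPRSS2 were well above background on every array used. Of 13 markers of other cell types, 5 were so on every array at 24 h (PTPRC, CD3E, PECAM1, CDH5 and ACTA2) and 4 at 48 h, while KRT5 and CHGA were above background on no array.

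The mitotic spindle is an array of microtubules that attaches to the chromosomes and pulls them apart. Proteins that bind microtubules nucleate them, bundle them, hold their ends at the poles and the kinetochores, and turn the spindle within the cell. Many of the genes for these proteins are transcribed late in the cell cycle and are silent in resting cells. Their promoters often carry a cell cycle genes homology region (CHR), which is read by complexes that contain the MuvB core, and CCAAT boxes, which are bound by NF-Y. In bulk samples fewer cells in a given phase and less RNA per cell cannot be told apart.

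The promoters are shown because the genes moved together. In the RefSeq promoters of GRCh38.p14, from 250 bases before to 50 bases after each annotated start, the letters TTTGAA on either strand were found in 8 of the 9 genes, all but CKAP2, against 15.2% of all 35116 promoters. The variant TTTAAA was found in 3 genes (NUSAP1, ASPM and GTSE1; 12.2% of all promoters), and CCAAT on either strand in 7 (all but SPAG5 and CKAP2; 34.6%). The letters GGCGGGAA and GCGGGAAA, both forms of the E2F site that can overlap each other, were in none of the 9 (3.16% and 1.63% of all promoters). A CHR form and CCAAT occurred together in 7 of the 9 promoters and in 9.27% of all. These matches are descriptions of the sequence and not evidence of binding. The 125 bases from 100 before to 25 after the start follow for 6 of the genes, 5′ to 3′ on the strand of the gene, with each CHR form, CCAAT or their reverse complement in capitals.
PRC1 (chr15:90994511-90994635, minus strand): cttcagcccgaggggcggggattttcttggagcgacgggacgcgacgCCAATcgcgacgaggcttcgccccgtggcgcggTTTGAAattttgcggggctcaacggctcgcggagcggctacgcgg
GPSM2 (chr1:108876885-108877009, plus strand): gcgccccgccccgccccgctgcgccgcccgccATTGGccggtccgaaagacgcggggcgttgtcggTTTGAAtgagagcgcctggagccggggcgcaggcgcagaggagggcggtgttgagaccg
HMMR (chr5:163460532-163460656, plus strand): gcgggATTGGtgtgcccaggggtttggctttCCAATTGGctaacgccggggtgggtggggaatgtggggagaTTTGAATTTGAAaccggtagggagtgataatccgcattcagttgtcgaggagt
DLGAP5 (chr14:55191561-55191685, minus strand): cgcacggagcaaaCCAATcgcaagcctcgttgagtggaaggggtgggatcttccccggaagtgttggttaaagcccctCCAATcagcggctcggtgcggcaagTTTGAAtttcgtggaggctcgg
SPAG5 (chr17:28599001-28599125, minus strand): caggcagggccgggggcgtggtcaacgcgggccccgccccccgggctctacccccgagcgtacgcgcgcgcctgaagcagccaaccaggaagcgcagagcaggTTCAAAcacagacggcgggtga
CKAP2 (chr13:52455888-52456012, plus strand): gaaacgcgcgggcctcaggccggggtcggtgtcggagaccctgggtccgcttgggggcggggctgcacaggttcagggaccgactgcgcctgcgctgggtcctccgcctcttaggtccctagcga

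PRC1 and GPSM2 each hold a CCAAT form upstream of a single TTTGAA. In PRC1 they begin 53 and 20 bases before the start, and in GPSM2 68 and 34 bases before it. HMMR holds TTTGAA as a direct repeat, from 28 and from 22 bases before the start, and DLGAP5 has its proximal TTTGAA just after the start. SPAG5 carries its match on the opposite strand only, and CKAP2 has none of the letters searched. For CKAP2 the promoter is that of a start 510 bases inside the annotated gene, so another start of this gene was not searched, while the other 8 promoters belong to the start at the annotated 5′ end.

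**Figure D1:**
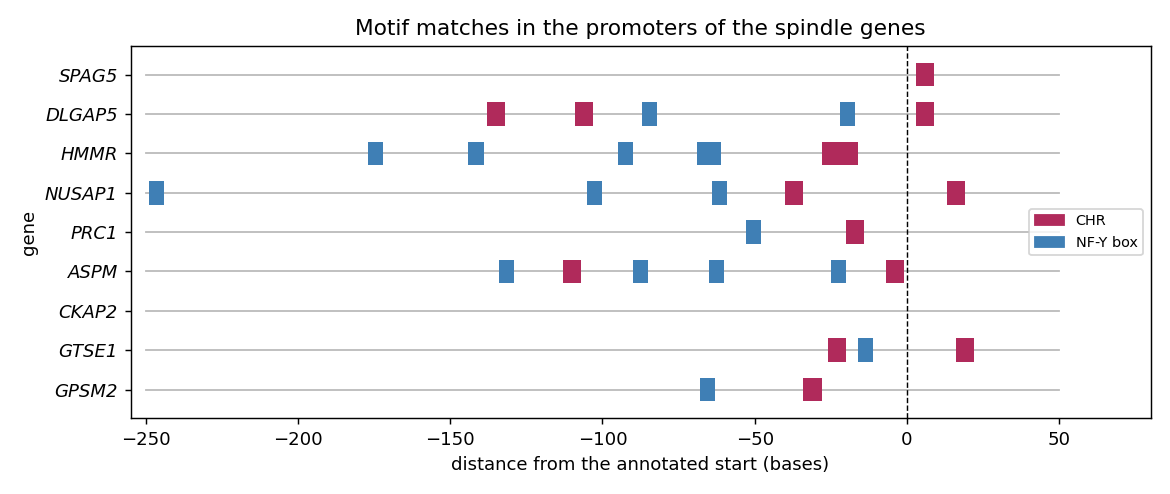
Motif matches in the promoters of the 9 spindle genes, drawn by distance in bases from the annotated start (dashed line), with CHR forms in red and CCAAT boxes (NF-Y) in blue. Matches to a CHR form lie in 8 of the 9 promoters and CCAAT in 7, and the line of CKAP2 is empty.

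At 24 h the means of all 9 genes were below the control with either siRNA. In what follows an intensity is the quantile-normalized log2 intensity of the gene's probe, and it cannot be set against that of another gene. By the threshold of the study (limma adjusted p below 0.01, and a log2 fold change of 0.5 or more in size), 2 of the 9 genes were called lower with si-A1 (SPAG5 and DLGAP5) and 4 with si-A2 (SPAG5, DLGAP5, PRC1 and GTSE1). Of all 15186 genes, 1.38% were called lower with si-A1 and 1.38% with si-A2. The 24 h contrasts entered the choice of the genes, so nothing is read from these shares. With 1 array left out, whichever it was, limma called 0 or 1 of the 9 genes with si-A1 and 0 to 3 with si-A2.

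SPAG5, also known as astrin, sits at kinetochores and spindle poles and protects the attachment of microtubules (chromosome 17, 28577574 to 28599025, GRCh38.p14). Its 24 h intensities were 8.98, 9.12, 9.11 and 8.75 with si-SCRL, 7.72, 7.88, 7.47 and 7.24 with si-A1, and 7.67, 7.53, 7.31 and 7.32 with si-A2. Every knockdown array lay below every control array. The log2 fold change was -1.41 (standard error 0.23) with si-A1 and -1.53 (standard error 0.23) with si-A2.

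DLGAP5, or HURP, binds the microtubules that end at kinetochores and stabilises them close to the chromosomes (chromosome 14, 55148135 to 55191585). It read 6.40, 6.52, 7.02 and 6.51 with si-SCRL, 5.50, 4.83, 5.36 and 4.98 with si-A1, and 5.35, 4.80, 5.29 and 5.10 with si-A2. The groups did not overlap between control and knockdown, while the si-A1 and si-A2 arrays covered nearly the same range. Its log2 fold changes were -1.44 and -1.47 (standard error 0.27 for each).

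PRC1 cross-links antiparallel microtubules in the central spindle, where cytokinesis is set up (chromosome 15, 90966040 to 90994535). Its arrays gave 7.74, 8.0, 8.07 and 8.14 with si-SCRL, 7.12, 6.21, 6.85 and 6.37 with si-A1, and 6.40, 6.24, 6.45 and 6.70 with si-A2. All knockdown arrays were below the controls, and the si-A1 arrays were the most spread. The log2 fold change of PRC1 was -1.35 with si-A1 and -1.54 with si-A2 (standard error 0.27 for each).

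GTSE1 stabilises spindle microtubules by restraining the depolymerase KIF2C, and is also known as a regulator of p53 (chromosome 22, 46296870 to 46330810). The control arrays read 7.39, 7.78, 7.56 and 7.15, the si-A1 arrays 6.45, 6.12, 6.25 and 5.86 and the si-A2 arrays 6.30, 5.77, 5.74 and 5.55. Here too the lowest control array stood above the highest knockdown array. The log2 fold changes of GTSE1 were -1.30 and -1.63 (standard error 0.26 for each).

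GPSM2, or LGN, joins NUMA1 to the cell cortex and so orients the spindle (chromosome 1, 108876985 to 108934545). Its intensities were 6.42, 7.17, 7.03 and 6.85 with si-SCRL, 5.98, 5.77, 5.90 and 5.70 with si-A1, and 5.86, 5.67, 5.48 and 5.82 with si-A2. The knockdown arrays were again all below the controls, with si-SCRL replicate 1 the nearest to them. The log2 fold change of GPSM2 was -1.03 with si-A1 and -1.16 with si-A2 (standard error 0.26 for each).

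CKAP2, which nucleates and stabilises microtubules at the spindle poles, was the exception with si-A2 (chromosome 13, 52455478 to 52476627). By the probe tested at 24 h (A_24_P99090) it read 7.04, 7.29, 7.69 and 7.0 with si-SCRL, 6.49, 6.04, 6.20 and 6.12 with si-A1, and 7.10, 6.50, 6.67 and 6.71 with si-A2. The si-A1 arrays were below the controls, while si-A2 replicate 1 reached into their range. Its log2 fold change was -1.04 with si-A1 and -0.51 with si-A2 (standard error 0.27 for each). The brighter CKAP2 probe (A_23_P151405) varied too little over the 24 h arrays to be tested, and its group means differed from the control by -0.82 and -0.63.

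ASPM, HMMR and NUSAP1 were dim, so their fold changes are less certain. ASPM focuses microtubule minus ends at the poles and is mutated in primary microcephaly (chromosome 1, 197084127 to 197146669). By its brighter probe ASPM was at 5.45 ± 0.75 (SD, n = 4) with si-SCRL, 3.95 ± 0.64 (SD, n = 4) with si-A1 and 3.65 ± 0.73 (SD, n = 4) with si-A2, and it was well above background on 4, 2 and 1 of the 4 arrays. The other ASPM probe (A_33_P3288159) was above background on all 4 control arrays, on 2 with si-A1 and on 0 with si-A2.

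HMMR, a microtubule-binding protein of the spindle poles that is also known as a hyaluronan receptor, was well above background on 2 control arrays, 1 si-A1 array and 0 si-A2 arrays at 24 h (chromosome 5, 163460632 to 163491941). Its means were 3.44, 2.64 and 1.78, and no fold is given, because the control mean lies below the dimmest signal rated above background on the si-A2 arrays (4.02 as their mean) and most arrays were at background. NUSAP1 bundles microtubules near the chromosomes (chromosome 15, 41332881 to 41381046). It was at 4.33 ± 0.26 (SD, n = 4) with si-SCRL, above background on 3 of the 4 arrays, and below that rating on all 8 knockdown arrays. The decrease of NUSAP1 was at least 1.47-fold with si-A1 and at least 1.24-fold with si-A2. For such a bound the array floor (the dimmest signal with that rating) takes the place of the dim value wherever it is higher, and the log2 means of the 2 groups are then compared.

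**Figure D2:**
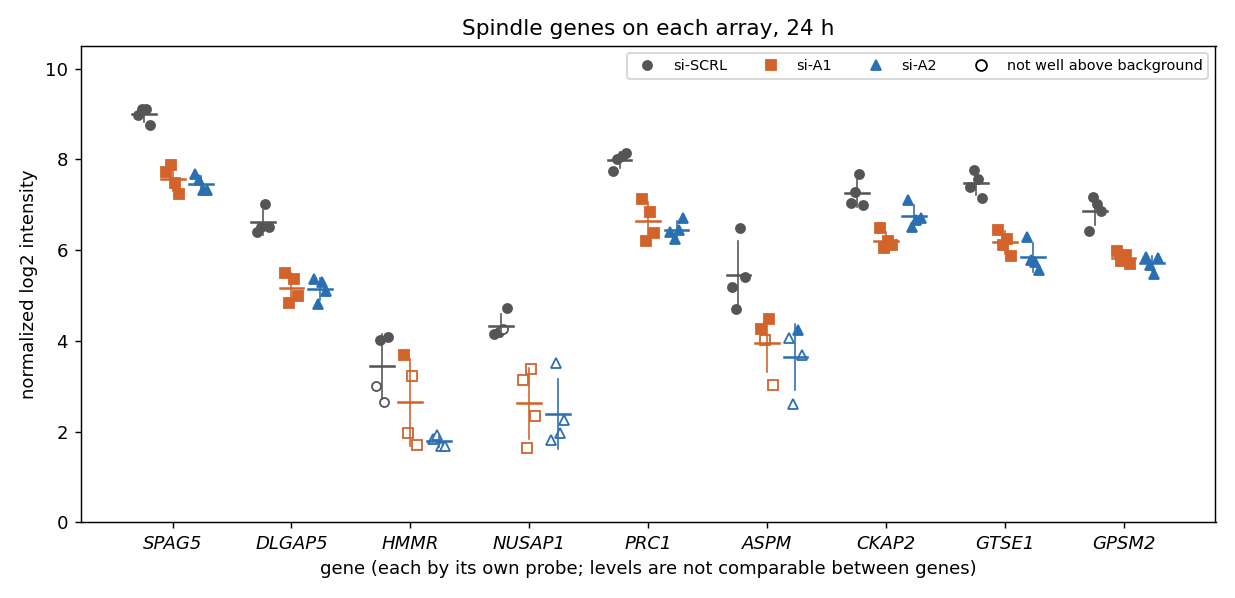
Normalized log2 intensity of the 9 spindle genes on each 24 h array (y axis), by gene (x axis) and siRNA, with mean (horizontal line) and SD (vertical line) of 4 arrays; open symbols were not well above background. In 8 genes each si-A1 array lies below all controls, the exception being HMMR, and in 8 each si-A2 array does, the exception being CKAP2.

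By the probes tested, all 4 si-A1 arrays were below all 4 controls for 8 of the 9 genes (7.31% of all genes tested), and all 4 si-A2 arrays for 8 (6.24%). The exceptions were HMMR with si-A1 and CKAP2 with si-A2. Each of the 9 genes was lower within either slide, with medians of -1.20 and -1.50 with si-A1 and of -1.52 and -1.61 with si-A2. The median log2 fold change of the 9 genes was -1.35 with si-A1 and -1.54 with si-A2, beside a median of 0.02 over all genes tested for each siRNA. With NUSAP1 at its bound, and HMMR at its fitted -0.80 with si-A1 and at 0 with si-A2, these medians were -1.30 and -1.47.

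Between the 2 siRNAs at 24 h, 0 of the 9 genes was called in limma's fit and 0 had an unadjusted p under 0.05 (13.0% of all genes had). The 24 h arrays entered the choice of the genes, so this comparison is also a description. Over all genes 0.0395% were called lower with si-A2 than with si-A1. HMMR and NUSAP1 were too dim for a difference. For the other 7 genes that of si-A2 from si-A1 was between -0.33 (GTSE1) and 0.54 (CKAP2). For DLGAP5 it was -0.03, with a 95% interval from -0.62 to 0.55, and for SPAG5 -0.12, from -0.62 to 0.39. By the probe tested, CKAP2 was the gene with all 4 si-A2 arrays above all 4 si-A1 arrays (5.68% of all genes were so). Its interval, from -0.04 to 1.11, included 0 (limma adjusted p = 0.424). By the brighter CKAP2 probe, untested at 24 h, the si-A1 and si-A2 arrays overlapped and their means differed by 0.19.

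At 48 h all 9 genes fell with si-A1. This time point was no part of the 24 h contrasts, but its results were also known when the genes were chosen. The 48 h calls, adjusted p and shares of the 9 genes against the control are therefore also a description. Of all 17473 genes, 6.3% were called lower with si-A1 in limma's fit with Benjamini-Hochberg adjustment. The median log2 fold change of the 9 was -3.06, against 0.11 over all genes tested, and 0.424% of the genes had a fold change at or below that median. The values lay between -1.55 for CKAP2 and -4.05 for DLGAP5, with adjusted p between 7.0e-05 and 0.00289. With the dim si-A2 array kept in the fit, 0 of the 9 genes passed and the median was -2.95.

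DLGAP5 had the largest fitted decrease. Its 48 h intensities were 7.80, 7.53, 7.12 and 7.72 with si-SCRL, 3.05, 4.43, 3.09 and 3.37 with si-A1, and 6.04, 4.68 and 5.41 with si-A2. The 3 groups were separate from each other, in the order si-SCRL, si-A2, si-A1, and only 1 of the si-A1 arrays was well above background. The log2 fold change of DLGAP5 was -4.05 with si-A1 (limma adjusted p = 8.6e-05, standard error 0.32), and since 3 arrays were near background its size is uncertain.

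GTSE1 kept the same order, at 8.33, 8.02, 8.09 and 8.12 with si-SCRL, 4.07, 5.10, 4.48 and 4.76 with si-A1, and 6.57, 5.55 and 6.13 with si-A2. No array of one group reached into another, and all were well above background. GTSE1 fell by 3.54 on the log2 scale with si-A1 (standard error 0.27, limma adjusted p = 7.0e-05), an 11.6-fold decrease.

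SPAG5 read 9.78, 9.62, 9.19 and 9.70 with si-SCRL, 6.18, 6.69, 6.08 and 6.68 with si-A1, and 8.20, 7.30 and 7.85 with si-A2. Again the 3 groups did not overlap. After si-A1 SPAG5 fell by 3.16 (standard error 0.23, limma adjusted p = 7.0e-05), which is 8.95-fold.

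PRC1 stood at 8.44, 8.22, 8.12 and 8.39 with si-SCRL, 5.48, 5.83, 5.43 and 5.49 with si-A1, and 6.97, 5.93 and 6.25 with si-A2. The si-A2 arrays lay between the other groups. PRC1 fell by 2.74 with si-A1 (standard error 0.20, limma adjusted p = 7.0e-05).

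GPSM2 was at 7.23, 7.16, 6.80 and 7.07 with si-SCRL, 4.31, 4.57, 4.39 and 4.69 with si-A1, and 5.40, 4.34 and 4.56 with si-A2. The knockdown arrays were all below the controls and overlapped each other. GPSM2 fell by 2.57 with si-A1 (standard error 0.21, limma adjusted p = 9.2e-05).

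CKAP2 had the smallest decrease with si-A1. By the brighter probe, which was the one tested at 48 h, it read 7.12, 7.17, 7.05 and 6.65 with si-SCRL, 5.38, 5.34, 5.44 and 5.64 with si-A1, and 6.56, 5.99 and 6.19 with si-A2. CKAP2 fell by 1.55 (standard error 0.18, limma adjusted p = 0.00043), and the other probe gave the same difference in group means, -1.55.

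ASPM was at 6.14 ± 0.20 (SD, n = 4) with si-SCRL, 3.08 ± 0.45 (SD, n = 4) with si-A1, where 1 of 4 arrays was well above background, and 4.14 ± 0.70 (SD, n = 3) with si-A2. It fell by 3.06 with si-A1 (standard error 0.31, limma adjusted p = 0.00023). The dimmer ASPM probe was above background on none of the si-A1 arrays.

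HMMR and NUSAP1 were not well above background on any si-A1 array at 48 h, so only bounds can be given. HMMR was at 4.97 ± 0.37 (SD, n = 4) in the control and fell at least 3.37-fold (limma adjusted p = 0.00289), a call that was lost without si-A1 replicate 2 (limma adjusted p = 0.0113). NUSAP1 was at 5.0 ± 0.42 (SD, n = 4) in the control and fell at least 3.46-fold (limma adjusted p = 0.00110). After si-A2, HMMR read 4.50, 2.94 and 1.51, with the first of these above background, and NUSAP1 read 3.49, 1.66 and 2.92, with none above it.

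**Figure D3:**
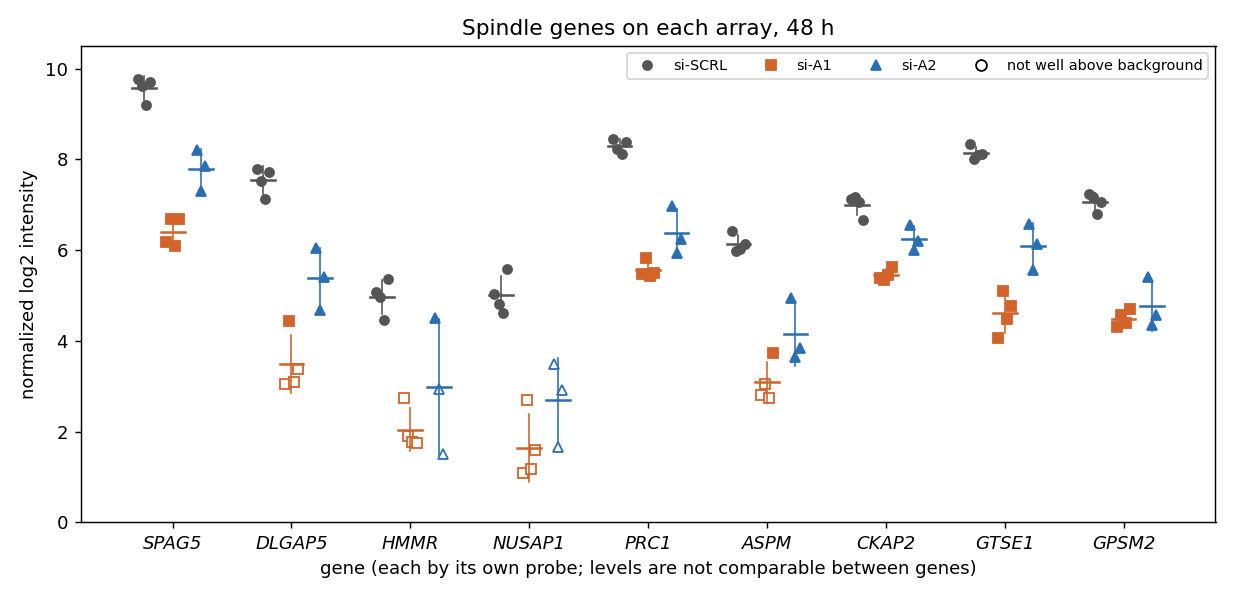
Normalized log2 intensity of the 9 spindle genes on each 48 h array (y axis), by gene (x axis) and siRNA, with mean (horizontal line) and SD (vertical line) of 4 arrays (3 for si-A2); open symbols were not well above background. The si-A1 arrays lie below all controls in every gene, and the si-A2 arrays lie between the other groups in SPAG5, DLGAP5, PRC1, CKAP2 and GTSE1.

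After si-A2 at 48 h, 2 of the 9 genes were called lower (0.195% of all genes tested were). GPSM2 fell by 2.25 (standard error 0.23, limma adjusted p = 0.00803) and PRC1 by 1.86 (standard error 0.21, limma adjusted p = 0.00892). SPAG5 and GTSE1 missed the threshold with log2 fold changes of -1.74 and -2.02 (limma adjusted p = 0.0123 for each), and the adjusted p of the remaining 5 genes lay between 0.0185 and 0.0914. HMMR had the largest of these, at -1.85 with a 95% interval from -2.99 to -0.70. The NUSAP1 decrease was at least 2.99-fold (limma adjusted p = 0.0392). The calls of GPSM2 and PRC1 were lost whichever of the 11 arrays was left out, when limma gave adjusted p of 0.0151 to 0.0430 for GPSM2 and 0.0178 to 0.0430 for PRC1. With the replicate number as a block they were also lost (limma adjusted p = 0.0290 and 0.0300), while the 9 calls with si-A1 held.

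The si-A1 arrays were below every control for 9 of the 9 genes at 48 h (10.2% of all genes tested), and the si-A2 arrays for 8 (7.97%), HMMR being the exception. Within the slides the median of the 9 genes was -3.02 and -3.06 with si-A1. After si-A2 it was -1.43 on slide 1, where 1 array of si-A2 remained, and -2.33 on slide 2.

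The difference between the siRNAs at 48 h was fitted directly. It uses the same arrays, whose results were known when the genes were chosen, so its p-values and shares are also a description. NUSAP1 was above background on no array of either siRNA, and HMMR on 1 with si-A2 alone, so no difference is given for them. For the other 7 genes the difference of si-A2 from si-A1 was above 0, from 0.33 for GPSM2 to 1.98 for DLGAP5. The median over the 9 fitted values was 1.1 (0.88 with HMMR and NUSAP1 at 0), against -0.07 over all genes. None of the 9 reached an adjusted p of 0.01 (1.2% of all genes were called higher with si-A2). SPAG5 came nearest, at 1.42 with a 95% interval from 0.86 to 1.99 (limma adjusted p = 0.0130), followed by DLGAP5, with an interval from 1.18 to 2.77 (limma adjusted p = 0.0136), and GTSE1 at 1.52, from 0.86 to 2.17 (limma adjusted p = 0.0175). Every si-A2 array lay above every si-A1 array for 5 genes, SPAG5, DLGAP5, PRC1, CKAP2 and GTSE1 (8.97% of all genes). For GPSM2 the interval ran from -0.19 to 0.85. The median difference was 1.77 on slide 1 and 0.63 on slide 2, where GPSM2 was at -0.09. Without si-A2 replicate 1, the only si-A2 array of slide 1, the median of the 9 genes was 0.67.

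The values of the time points stand side by side as follows. The median log2 fold change of the 9 genes was -1.35 at 24 h and -3.06 at 48 h with si-A1, and -1.54 at 24 h and -1.96 at 48 h with si-A2. The change over time was not tested, because time point and array version cannot be told apart and the CKAP2 values come from different probes.

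**Figure D4:**
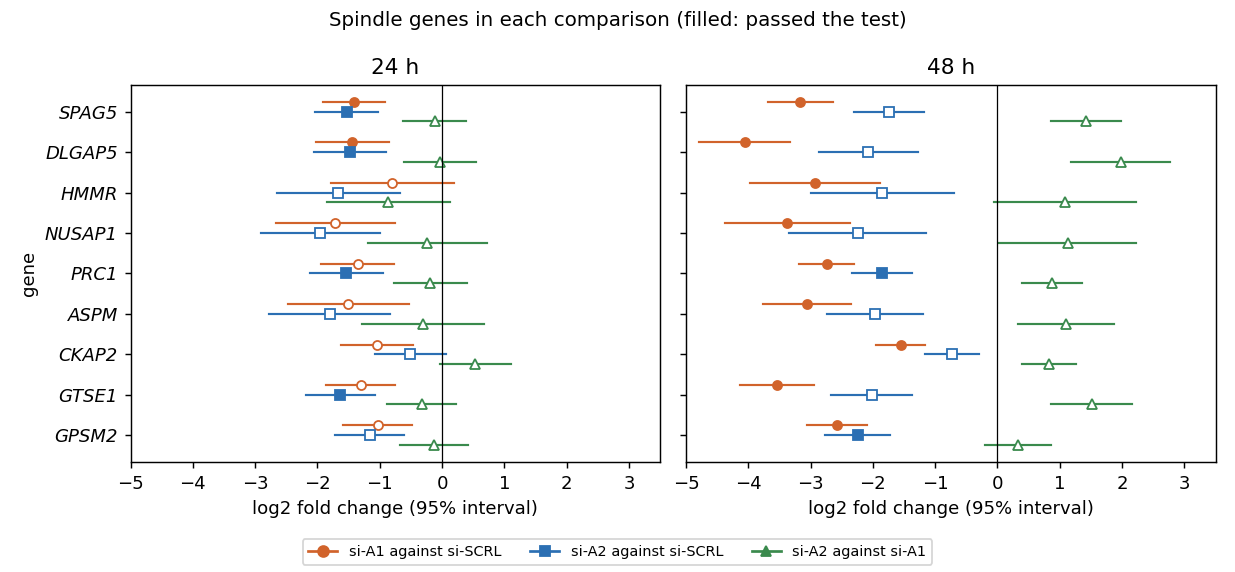
Log2 fold change with its 95% interval (x axis) for the 9 spindle genes (y axis) in the 3 comparisons at 24 h (left) and 48 h (right). Filled symbols passed the limma threshold, and all values are a description. All 9 si-A1 symbols are filled at 48 h, and the green symbols for si-A2 against si-A1 have a median of -0.19 at 24 h and 1.1 at 48 h.

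Genes that work with the 9 at the spindle were grouped by role. The lists were written with earlier results of these arrays known, so counts over them are a description. Of 34 spindle partners (motors, pole and kinetochore proteins, and the Ran pathway that releases them), 33 were above background at 24 h, and their median log2 fold change was -0.26 with si-A1 and -0.29 with si-A2, against 0.05 over all genes above background for each. Of the 17 tested, 0 were called lower with si-A1 in limma's fit and 4 with si-A2 (1.38% of all genes were called lower with either). These were the kinesins KIF2C (-1.53), which depolymerises microtubules and is held back by GTSE1, KIF11 (-1.53), which pushes the poles apart, and KIF4A (-1.36), the partner of PRC1, and TPX2 (-1.40), which activates Aurora A (limma adjusted p = 0.00225, 0.00725, 0.00689 and 0.00502). Leaving out 1 array gave 0 to 6 calls over this list and the next. After si-A1 the values of TPX2 and KIF4A were -1.13 and -1.26 (limma adjusted p = 0.0194 and 0.0109). The difference between the siRNAs was -0.27 for TPX2 and -0.10 for KIF4A (limma adjusted p = 0.728 and 0.919).

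At 48 h, 14 of the 20 spindle partners tested were called lower with si-A1 and 0 higher, where 6.3% of all genes were called lower. Only the 20 that varied enough between arrays were tested, and the median over the 32 above background was -0.57. The partners FAM83D, which binds HMMR (-3.79, limma adjusted p = 0.00075), KIF4A (-3.60), KIF11 (-2.44), TACC3, which links microtubules within a fibre (-2.38), KIF2C (-2.04) and TPX2 (-2.04) had the largest decreases. PSRC1, CKAP5, DCTN1, CDK5RAP2, RAN, RCC1, KPNA2 and KPNB1 fell by less, from -0.85 for KPNB1 to -1.26 for KPNA2. The dimmer of the KPNB1 probes was the one tested, and the brighter gave -0.56. FAM83D averaged 3.30 with si-A1 (2.44 to 3.91), while the dimmest signal rated above background was 3.05 to 3.61 over the 48 h arrays. The size of its decrease is therefore uncertain, and the lowest KIF4A array with si-A1 (3.27) was near that floor too. Of these partners only TPX2 was called lower with si-A2 (-1.43, limma adjusted p = 0.00927, with 0.195% of all genes called lower). With the replicate number as a block, or with any 1 array left out, 0 of the partners were called lower with si-A2. By fitted value 24 of the 32 partners above background were below 0 with si-A2. FAM83D (-2.46), KIF4A (-1.85), KIF2C (-1.54) and KIF11 (-1.48) had larger decreases than TPX2 without a call (limma adjusted p = 0.0351, 0.0256, 0.0114 and 0.0102). DCTN1, a subunit of the dynactin complex, was called in the comparison of the siRNAs, 1.30 higher with si-A2 than with si-A1 (limma adjusted p = 0.00427; 1.2% of all genes were called higher, and 0 genes of these lists with the block, or without any 1 of the si-A1 or si-A2 arrays).

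Partners of the 9 proteins were not all lower. KATNA1, KNSTRN and MAPRE1 had negative values in each comparison with si-SCRL, and NUMA1 did not. NUMA1, which GPSM2 tethers to the cortex, was above background but varied too little to be tested, at 0.18 and 0.30 at 24 h and 0.04 and 0.00 at 48 h with si-A1 and si-A2. KATNA1, the microtubule-severing subunit that works with ASPM, was at -0.20 and -0.21 at 24 h and at -0.22 and -0.17 at 48 h, also untested. KNSTRN, which forms a complex with SPAG5, was untested at 24 h (-0.43 and -0.39). At 48 h KNSTRN was at -0.83 with si-A1 and -0.69 with si-A2 (limma adjusted p = 0.0112 and 0.0958). MAPRE1, which tracks growing plus ends, was at -0.26 and -0.76 at 24 h (limma adjusted p = 0.731 and 0.173). At 48 h MAPRE1 was untested, at -0.33 with si-A1 and -0.62 with si-A2.

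The genes of the gamma-tubulin ring and of augmin, which nucleate microtubules, had medians of -0.29 with si-A1 and -0.29 with si-A2 at 24 h, with 0 of the 9 tested called in limma's fit for either siRNA (1.38% of all genes). At 48 h 2 of the 10 tested were called lower with si-A1, HAUS6 (-1.72, limma adjusted p = 0.00262) and TUBGCP3 (-0.97, limma adjusted p = 0.00230), against 6.3% of all genes. With si-A2 0 were called lower (0.195%), and the median over the 16 above background was -0.45. HAUS6 averaged 3.15 with si-A1 (2.48 to 3.78), near the dimmest signals rated above background (3.05 to 3.61), so the size of its decrease is uncertain.

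**Figure D5:**
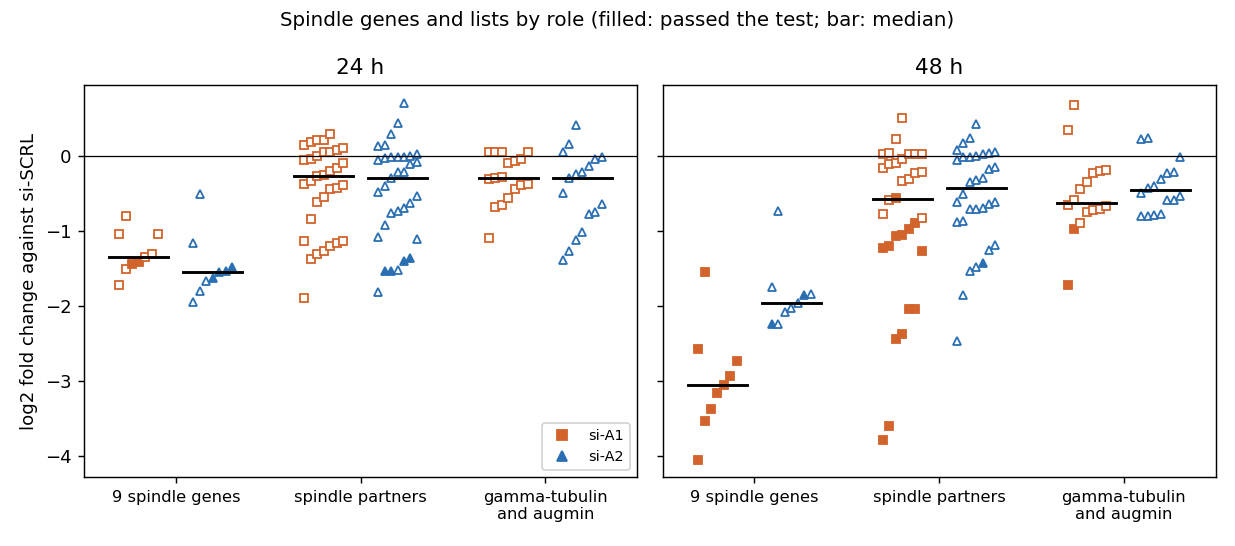
Log2 fold change against si-SCRL (y axis) of the 9 spindle genes, the spindle partners and the gamma-tubulin and augmin genes above background (x axis) at 24 h (left) and 48 h (right), with 1 symbol per gene by its brightest probe (for the 9 genes the probe tested), filled where the gene passed the limma threshold and with a bar at the median. At 48 h with si-A1 the median is -3.06 for the 9 genes, -0.57 for the partners and -0.62 for the gamma-tubulin and augmin genes.

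Over the arrays the 9 genes varied together. The Pearson correlation of each gene with the mean of the 9, after centring, lay between 0.76 (CKAP2) and 0.98 (PRC1) over the 12 arrays at 24 h and between 0.91 (HMMR) and 1.00 (PRC1) over the 11 arrays at 48 h, each gene being part of that mean. Outside the 9, the genes most like this mean among 7266 at 24 h were CCNA2, the cyclin of S and G2 phase (0.99), CDKN2C (0.99), AURKA, the kinase that TPX2 activates (0.98), CLSPN (0.98) and TONSL (0.98). Among 8442 genes at 48 h they were AURKA (1.00), FANCI (0.99), TPX2 (0.99), CCNA2 (0.99) and CENPH (0.99). These correlations are a description: the points share the groups, so a difference between siRNAs is enough to make them high.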

How the data were processed

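The authors deposited scanner files of 24 single-colour Agilent arrays (Feature Extraction 11.5.1.1), each giving a processed intensity, background-subtracted and detrended within the array. The log2 values they also deposited, quantile-normalized per their methods (R 3.4.3, limma 3.34.8 in the processing notes), served as an alternative.

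Here processed intensities were put on the log2 scale and quantile-normalized over 12 arrays at 24 h and 11 at 48 h, where the dim array was left out. Control spots were then dropped, outlier spots set aside (none of the 9 genes) and the spots of a probe averaged. Gene names came from RefSeq accessions matched to GRCh38.p14 (57.4% of 50599 probes at 24 h, 53.4% of 58201 at 48 h). To be tested, a probe had to lie over the mean of 308 negative control spots by 3 of their SDs on 3 or more arrays, with its quartiles 0.5 or more apart, and the brightest such probe stood for its gene. All 9 genes passed this filter at both time points. The 3 siRNA groups of a time point were fitted together with limma (R 4.3.3, limma 3.58.1, statmod 1.5.0, data.table version 1.17.8) with slide as an additive term. On simulated data with 200 genes lowered after si-A1, this fit called 0% of log2 changes of -1 at either time point. It called 35.5% (24 h) and 49% (48 h) of changes of -2, and 83.5% and 81.5% of changes of -3. In the 48 h arrays 1101 genes were called lower with si-A1, and 722 at a log2 fold change of at least 1. Changes smaller than 1 were thus called there, so the simulated shares do not give the power of that comparison. Adjusted p-values are Benjamini-Hochberg values over all genes tested and measure the spread between arrays, whose number limits the precision. Shares in percent are of the genes tested.

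The 9 genes, the lists and the tests were chosen with earlier results of these data known. The genes named are the 9, list genes that were called, 9 set partners (TPX2, KNSTRN, FAM83D, NUMA1, CKAP5, TACC3, MAPRE1, KIF4A and KATNA1), and the 5 genes most correlated with the 9 at each time point. Alternatives changed the scaling, the background correction (normexp, offset 50, on the median pixel intensity), the source of the values, the slide term, the filters, the probe rule, the groups fitted, the fold threshold and the arrays used. The labels number the replicates. At 48 h, same-numbered arrays deviated together in all 10 pairs (correlation 0.19 to 0.35), and such arrays also share a slide. The 48 h p-values and calls come from the fit with slide, which does not pair these arrays, unless the replicate block is named. With that block, 0 of all genes were called lower with si-A2 at 48 h (34 in the report) and 705 with si-A1 (1101). At 24 h same-numbered arrays deviated together in 3 of 12 pairs (-0.15 to 0.19), and the numbers were not taken as pairs there.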

Additional observations from a re-analysis of the deposited data

Results flagged for a closer look

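In 45 groups of 4 arrays (9 genes by the probe tested), Dixon's test set 2 arrays apart, as chance would for about 1 group in 20. HMMR after si-A1 at 48 h was highest on replicate 1, at 2.74 against 1.90 on the next array, and none of the 4 was well above background. PRC1 after si-A1 at 48 h was highest on replicate 2, at 5.83 against 5.49 on the next array and far below the control arrays.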

How the results depend on the processing

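The signs of the median log2 fold changes held under every alternative run, but calls at 24 h and with si-A2 depended on the settings. The arrays are few and the probes of HMMR, NUSAP1 and ASPM dim, so the lack of a call, in any comparison, does not show that a gene was alike in both groups. The medians here are over fitted values, dim genes included. Below, calls are by limma, list calls count both partner lists, and comparisons are with si-SCRL unless the siRNAs are said to be compared. The cause of these shifts was not tested except where the number of genes tested is given.

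Under 75th percentile scaling 1 of the 9 genes was called with si-A1 at 24 h (2 in the report). That scaling moved the median of all genes to 0.16 with si-A1 at 24 h and 0.22 at 48 h. Normexp left 1578 genes to test at 24 h and 2897 at 48 h, with 4 and 7 of the 9 among them. Their medians were -0.90 at 24 h and -1.74 at 48 h with si-A1, -1.04 and -1.21 with si-A2, and at 48 h 0.50 between the siRNAs. It called 4 of them with si-A1 at 24 h, 6 with si-A2 at 48 h and 4 higher between the siRNAs at 48 h. Its list calls were 9 and 11 at 24 h, with 2 lower between the siRNAs, and at 48 h 12 with si-A2 and 5 between the siRNAs. Without a slide term the list calls were 1 with si-A1 at 24 h and at 48 h 10 with si-A1 (16 in the report), 0 with si-A2 and 0 between the siRNAs, and 0 of the 9 genes passed with si-A2 at 48 h. A random slide block gave 1 list call with si-A1 at 24 h.

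With the replicate block, 0 of the 9 genes with si-A1 and 2 with si-A2 were called at 24 h, where the numbers do not pair the arrays, and 0 with si-A2 at 48 h. List calls with this block were 1 with si-A2 at 24 h, 0 with si-A2 at 48 h and 0 between the siRNAs at 48 h. The block changed no other call of the 9 genes at 48 h. With only the groups compared in the fit, 0 of the 9 were called with either siRNA at 24 h and 0 with si-A2 at 48 h, and the list calls were 0 for si-A2 at each time and 0 between the siRNAs at 48 h.

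Without the interquartile filter 4 of the 9 were called with si-A1 at 24 h and 4 with si-A2 at 48 h, and list calls were 6 and 10 at 24 h, 4 with si-A2 at 48 h and 2 between the siRNAs. The filter on spots well above background gave 5 of the 9 with si-A1 at 24 h, 6 with si-A2 at 48 h and 3 higher between the siRNAs, with list calls of 7 and 11 at 24 h, 4 with si-A2 at 48 h and 4 between the siRNAs. Without any filter 4 of the 9 passed with si-A1 at 24 h, and list calls were 6 and 9 at 24 h, 4 with si-A2 at 48 h and 2 between the siRNAs. The median over probes gave list calls of 1 with si-A1 at 24 h, 2 with si-A2 at 48 h and 0 between the siRNAs. With the dim array kept, 0 of the 9 were called with either siRNA at 48 h, list calls were 0 with si-A1, 0 with si-A2 and 0 between the siRNAs, and the medians were -2.34 with si-A2 and 0.54 between the siRNAs.

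When 1 array was left out, for each of the arrays, the medians lay between -1.42 and -1.23 with si-A1, -1.61 and -1.50 with si-A2, and -0.32 and -0.08 (between the siRNAs) at 24 h, and between -3.32 and -3.0, -2.30 and -1.79, and 0.67 and 1.32 at 48 h. Of the 9, 0 to 1 (si-A1), 0 to 3 (si-A2) and 0 (between the siRNAs) were called at 24 h, and 8 to 9, 0 and 0 at 48 h. List calls were 0, 0 to 6 and 0 at 24 h, and 12 to 17, 0 and 0 to 1 at 48 h. The sign of the 24 h difference between the siRNAs turned for DLGAP5 (-0.14 to 0.12 over the arrays left out) without si-A1 replicate 1 or 3 (0.0123) or si-A2 replicate 2 (0.0651) or 4 (0.00808), for PRC1 without si-A1 replicate 1 (0.0195), for ASPM without si-A2 replicate 2 (0.00573, with -0.73 as the lowest value) and for NUSAP1 without si-A1 replicate 3 (0.0257, with -0.68 as the lowest). At 48 h it turned with the dim array kept for PRC1 (-0.49) and CKAP2 (-0.48).

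Over the settings other than arrays left out, all genes called lower numbered 64 to 466 (si-A1) and 92 to 340 (si-A2) at 24 h (209 and 210 in the report), and 0 to 1466 and 0 to 371 at 48 h (1101 and 34). Between the siRNAs 0 to 107 were called lower at 24 h (6) and 0 to 508 higher at 48 h (209).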
